A study of Mus musculus with 2 samples.

Results

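The Sfmbt2 intron cluster is an array of microRNA genes on mouse chromosome 2. Its members were taken as every microRNA gene of the GENCODE M21 annotation that lies inside the body of Sfmbt2 and on its strand. This rule gave 119 of the 2202 microRNA genes in the count tables, and it used no read count. In calf muscle 9 of the 119 members (7.56%) had a read assigned to them, against 561 of all 2202 genes (25.5%). Reads that match several places, 75.4% and 77.6% of all reads in the 2 libraries, are assigned to no gene. Of the reads assigned to the array, a pair of nearby genes, Mir467d and Mir467e, held 84.9% and 85.5%.

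The study measured small RNA by microRNA sequencing in 2 libraries of gastrocnemius, the large muscle of the calf. Both came from female B6CASTF1/J mice aged 36 days, the offspring of a cross of the C57BL/6 and CAST/EiJ strains. No treatment or altered allele is named, and the libraries form 1 group of n = 2, so no conditions could be compared. They are called replicate 1 and replicate 2 after their labels, which name a separate female for each, yet both carry the same donor identifier. Whether the SDs below are between animals or technical therefore cannot be told apart.

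MicroRNAs are short RNAs that are cut from a hairpin in a longer transcript and that guide repression of messenger RNAs, mainly through the seed near their 5′ end. Sfmbt2 encodes a Polycomb-group protein with MBT repeats and is imprinted in the mouse, where early embryonic and placental tissues express the paternal copy. One of its introns carries a large tandem array of microRNA hairpins of the families Mir297, Mir466, Mir467 and Mir669, which is known from rodents and is best known for its activity in placenta and embryonic stem cells. The tables count reads per hairpin gene. They do not split the reads by parental allele and do not hold the Sfmbt2 messenger RNA, so neither imprinting nor the host transcript was measured here.

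The mature forms of 8 relatives of these families that lie elsewhere in the genome are held in the RefSeq table of build GRCm38.p6. Of these, 4 are shown for their runs of alternating UG and CA letters, which are also common in hairpins of the array. Mir466q is the only relative elsewhere with reads. The other 3 are drawn from the families Mir467 and Mir669, which hold nearly all reads assigned to the array. Each is written 5′ to 3′ with its seed, bases 2 to 8, in capitals.
Mir466q: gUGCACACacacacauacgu
Mir467f: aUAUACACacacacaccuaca
Mir467h: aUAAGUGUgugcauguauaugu
Mir669n: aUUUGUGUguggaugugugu
The pairs TG, GT, CA and AC, written in DNA letters, made up 78.9% of the neighbouring base pairs of Mir466q, 65% of those of Mir467f, 52.4% of Mir467h and 68.4% of Mir669n. Mir467g, a relative that is not shown, had 50%, the lowest of the 8. The 8 relatives had 8 different seeds, so none of them could be grouped with another by its seed. The shares above are for mature forms. Over whole hairpins, the members of the array had a median of 50% such pairs (32.5% to 66.7%). The 10 relatives elsewhere had a median of 55.4% and all 2202 hairpins one of 27.0%. The 48 members with only a predicted-gene name beginning with Gm had a median of 38.3%. Over the whole array the median GC content was 37.3% against 50.8% over all hairpins, and the median length was 98 bases against 89.

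In build mm10 the host gene Sfmbt2 spans chr2:10370510-10595253 on the plus strand. In 2 of its 7 annotated transcripts all 119 hairpins lie in a single intron of 62.5 kb, which is intron sequence between exons 11 and 12 of one transcript and between exons 10 and 11 of the other. The first hairpin starts 3814 bases into that intron, and the array runs for 53.0 kb from chr2:10465287-10518279. Hairpins cover 23.1% of this span, with a median gap of 206 bases from one to the next (70 to 2575 bases). By name the array holds 29 Mir669, 23 Mir466, 14 Mir467 and 5 Mir297 genes, and 48 hairpins that carry only a predicted-gene name beginning with Gm.

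The hairpins are closely related copies of one another. Only 88 distinct hairpin sequences occur among the 119 members, and 47 members belong to 16 groups whose hairpins are identical from end to end. The largest group holds 9 copies, Mir669a-4 to Mir669a-12, whose starts are spaced by a median of 2454.5 bases (2428 to 4913). The next group holds 7 copies, which are Mir467a-2, Mir467a-4, Mir467a-5, Mir467a-7, Mir467a-8, Mir467a-9 and Gm25022. None of the 9 members with reads has an identical copy in the array.

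The tables held 1593787 gene-assigned reads in replicate 1 and 2078101 in replicate 2, out of 9538917 and 14072830 reads in all. Reads that matched several places stand in a row of their own and are assigned to no gene, and they made up 75.4% and 77.6% of all reads. Levels are given as counts per 1000000 gene-assigned reads (CPM), and a count of 0 allows up to 3 reads, or 1.88 CPM in replicate 1 and 1.44 CPM in replicate 2. Intervals are 95% intervals for counting error only. All 9 skeletal muscle marker genes had reads, and their share of gene-assigned reads was 2.21% in replicate 1 and 6.98% in replicate 2. Markers of smooth muscle went from 12.03% to 6.25% and those of red blood cells from 3.73% to 0.898%, so the libraries differed in more than the array.

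The array as a whole held a small part of the gene-assigned reads. Its members had 928 reads in replicate 1 and 864 in replicate 2. These were 582 CPM (exact Poisson interval 545 to 621) and 416 CPM (388.5 to 444), or 0.0499% ± 0.0118 of gene-assigned reads (SD, n = 2). The 2 intervals do not overlap, and the level was lower in replicate 2. Reads that match several places are not in these values, so the share of the array in all microRNA of the muscle was not measured. In bulk tissue a low level in every cell and a high level in a few cells cannot be told apart.

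Counted by gene, 9 of 119 members had at least 1 read in either library (7.56%), against 561 of all 2202 genes (25.5%). A member was called detected if it had 10 reads or more in both libraries, which held for 5 members, or 4.20%, against 273 of all genes (12.4%). The median member and the median gene of the whole table were both at 0 CPM. The large imprinted array between Dlk1 and Dio3 on chromosome 12 is another cluster of microRNA genes, but its hairpins share far less sequence. Cut into windows of 22 bases, they had a median of 100% of windows found at 1 place among all annotated hairpins, and 1 of 67 had none, against a median of 21.2% and 54 of 119 in the Sfmbt2 array. Levels of the 2 arrays are therefore given side by side as assigned reads, and the part of this difference in sharing was not tested. Between Dlk1 and Dio3, reads were assigned to 53 of 67 genes and 45 were detected, with a share of 6.05% ± 0.309 of gene-assigned reads (SD, n = 2). Its 2 most abundant genes were Mir127, with 26922 and 44342 reads, and Mir411, with 26999 and 29307, so each of them alone had more assigned reads than all 119 Sfmbt2 members together. The Dlk1 to Dio3 genes had 100.2 times the assigned reads of the Sfmbt2 array in replicate 1 and 151 times in replicate 2.

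By assigned reads, Mir467d and Mir467e stood far above the rest. Reads that match several places are not in this order, and 54 of the 119 members had no window found at 1 place. The order of the members by their level in the muscle was therefore not measured. Mir467d lies at chr2:10507630-10507714 and had 385 reads in replicate 1 and 401 in replicate 2, or 242 CPM (218 to 267) and 193 CPM (175 to 213). Mir467e lies at chr2:10505721-10505807 and had 403 and 338 reads, or 253 CPM (229 to 279) and 163 CPM (146 to 181). Their mean levels were 217 ± 34.4 and 208 ± 63.8 CPM (SD, n = 2), a difference well inside the spread between libraries. In replicate 1 the ratio of Mir467d to Mir467e reads was 0.955 (0.829 to 1.10), an interval that includes 1. In replicate 2 it was 1.19 (1.02 to 1.38). The order of this pair by count thus differed between the libraries, but it lay beyond counting error in replicate 2 only. By mean CPM Mir467d ranked 120 and Mir467e ranked 126 of 2202 genes. Together they held 84.9% (exact binomial interval 82.5% to 87.2%) and 85.5% (83.0% to 87.8%) of the reads assigned to the array, shares whose intervals overlap.

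The other 3 detected members were far below that pair in assigned reads. Mir669o, at chr2:10514300-10514395, had 51 and 45 reads and a mean of 26.8 ± 7.31 CPM. Mir467c, at chr2:10473931-10474027, had 45 and 49 reads and a mean of 25.9 ± 3.29 CPM. Mir669c, at chr2:10509296-10509404, had 29 and 23 reads and a mean of 14.6 ± 5.04 CPM (SD, n = 2 for all 3 members). Mir669o and Mir467c had overlapping counting intervals in both libraries, and that of Mir669c overlapped the interval of Mir669o in both libraries and that of Mir467c in replicate 1 only. With Mir467c added, the Mir467 genes held 89.8% (87.6% to 91.6%) and 91.2% (89.1% to 93.0%) of the reads assigned to the array.

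The remaining 4 members with reads were near the limit of the data. Mir669l, at chr2:10468971-10469068, had 9 and 6 reads, or 5.65 and 2.89 CPM. Mir466n, at chr2:10513741-10513834, had 4 reads in replicate 1 and 0 in replicate 2. Mir669e, with 2 and 1 reads, and Mir669h, with 0 and 1, fell outside the rule for named genes and were chosen after their values were seen. All 4 together had 15 and 8 reads. By family, 3 of 14 Mir467, 5 of 29 Mir669 and 1 of 23 Mir466 genes had reads, and 0 of 5 Mir297 genes and 0 of 48 genes with a Gm name did. Reads on the opposite strand of the 119 members numbered 0 in both libraries.

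**Figure D1:**
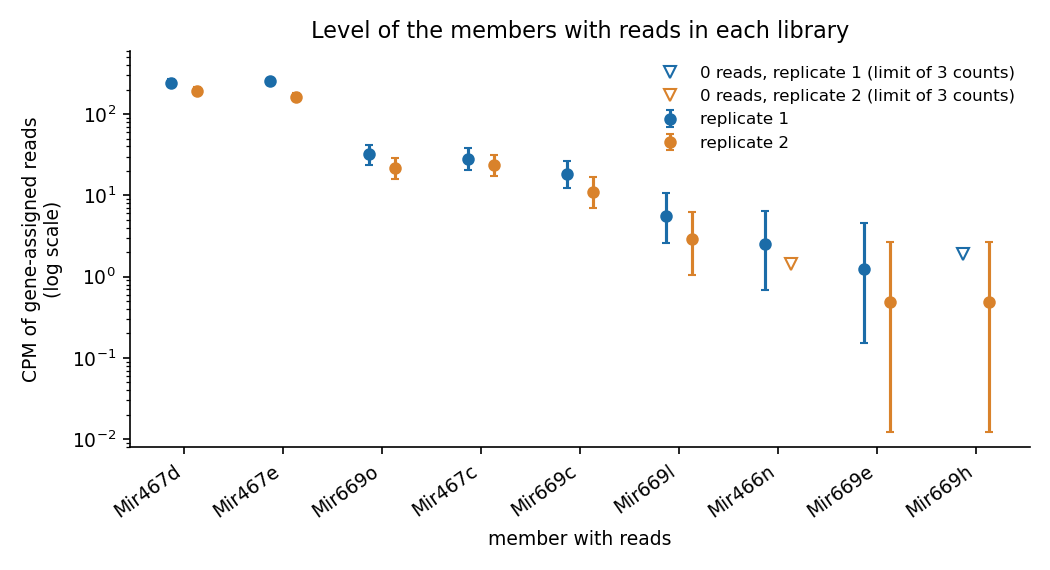
Level of the 9 members with reads in replicate 1 and replicate 2, in CPM on a log axis, with exact Poisson 95% intervals and with open triangles at the limit of 3 counts where a library had 0 reads. Mir467d and Mir467e lie between 163 and 253 CPM, and no other member exceeds 32.0 CPM.

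The assigned reads lay in a first and a last stretch of the array, and most were in the last. Going from the first hairpin, the first 17 members included Mir669e, Mir669l and Mir467c and had 56 reads in each library. Then came 72 members in a row without a read, from Mir466b-1 to Gm26398, over 30.6 kb. The last 30 members included the other 6 with reads and had 872 and 808 reads. Mir467e and Mir467d lie 40.4 and 42.3 kb from the start of the array, and are followed by Mir669c at 44.0 kb and by Mir669o at 49.0 kb. Past Mir669o only Mir669h had a read, 1 in replicate 2. Members without a window found at 1 place numbered 52 of the 72 silent ones in a row. They numbered 0 of the first 17 members and 2 of the last 30. The part of sequence sharing in this pattern was not tested.

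**Figure D2:**
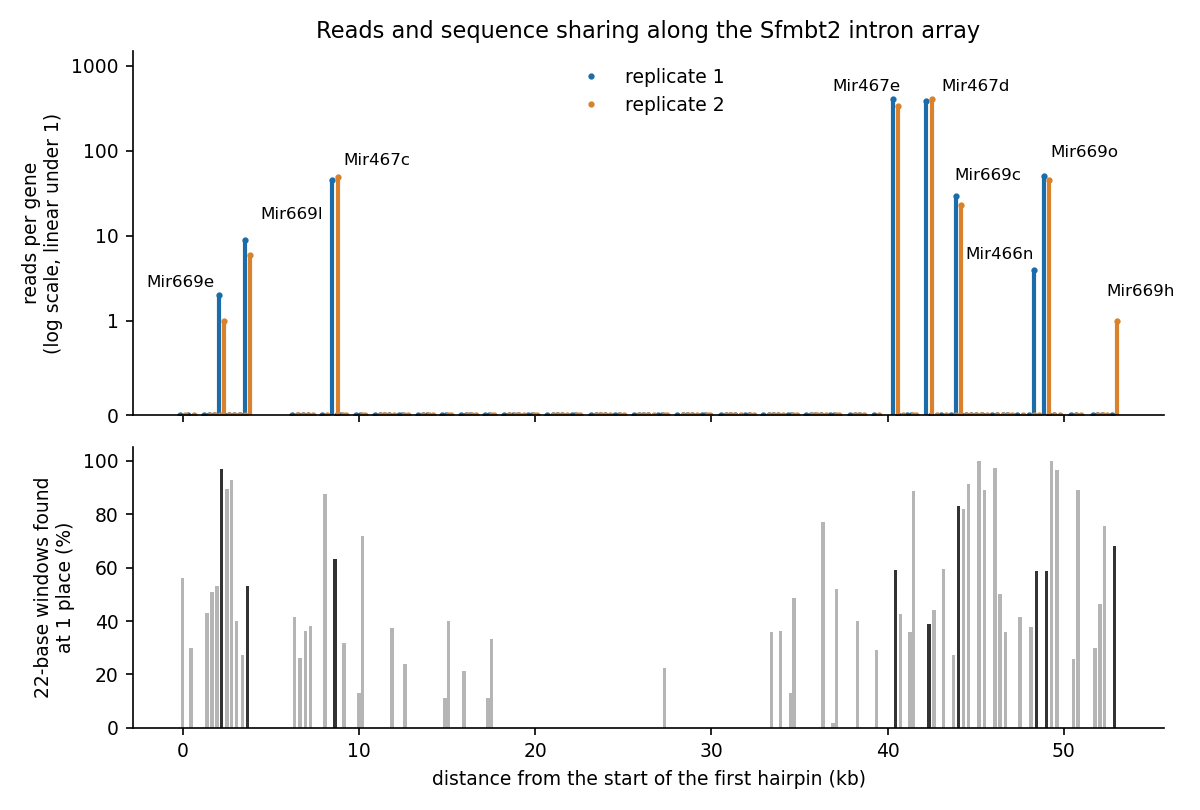
Reads per gene in replicate 1 and replicate 2 (top; log axis that is linear under 1) and the percentage of each hairpin's 22-base windows found at 1 place (bottom; dark bars are members with reads), against distance from the start of the first hairpin in kb. Reads lie on either side of a silent stretch, most of them after it, and in this stretch of 72 members 52 have no window of their own.

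Because reads that match several places are assigned to no gene, how much of each hairpin is unique bears on what the counts can show. Each hairpin was therefore cut into all of its overlapping windows of 22 bases, about the length of a microRNA. A window was called the hairpin's own if its letters, on either strand, occurred at 1 place among all 2202 annotated hairpins. Sequence outside annotated hairpins was not searched, so the share of own windows is an upper limit for build mm10. The CAST/EiJ copies of the hairpins, which these mice also carry, were not looked at. In the array 54 of 119 members had no window of their own, and 0 of these 54 had reads. Of the 37 with some own windows but at most 50%, 1 had reads, and of the 26 with more than 50% but under 100%, 8 had reads (30.8%).

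Genes outside the array were ordered in a like way over the same classes. There 3 of 243 genes with no own window had reads (1.23%), 5 of 297 with at most 50% (1.68%), 77 of 390 with more than 50% but under 100% (19.7%) and 467 of 1153 with only own windows (40.5%). The 3 genes with reads but no own window were Gm23935 (52 and 35 reads), Gm24270 (4 and 3) and Gm47295 (0 and 4), named after their values were seen, so lack of an own window did not always go with a count of 0. The array held only 2 members whose windows were all their own, Mir466g and Gm22239, both named after their values were seen, and both had 0 reads in both libraries. Among members with reads the share of own windows ran from 39.1% to 96.9% with a median of 59.1%, and among silent members it ran from 0% to 100% with a median of 6.60%. These are descriptions over related genes, which are not independent, and no test was made of them. How many of the reads matching several places came from this array was not tested.

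**Figure D3:**
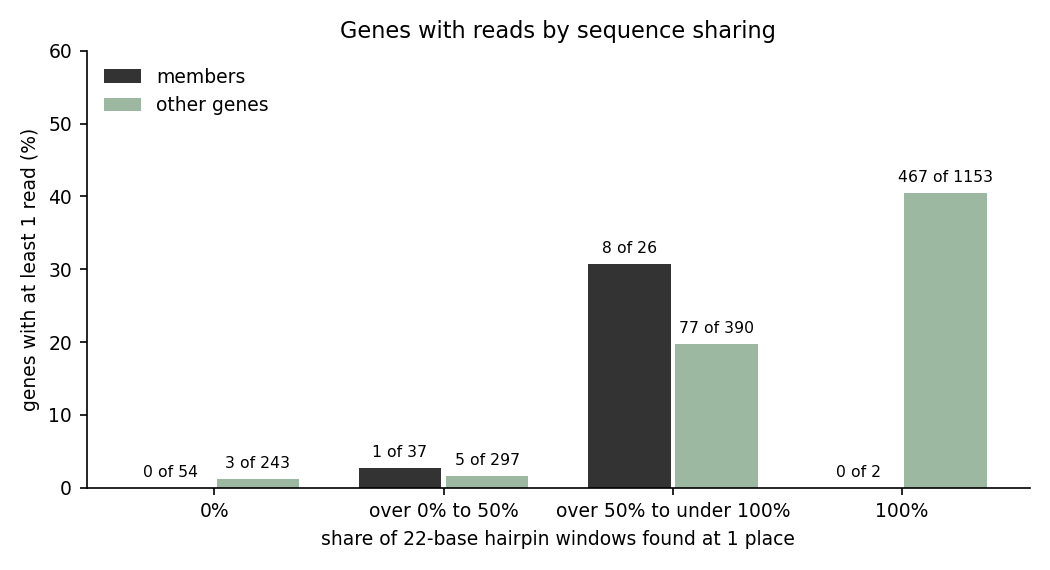
Percentage of genes with reads, for the 119 members and for the other genes, in 4 classes by the share of 22-base windows found at 1 place. Numbers over the bars are genes with reads of all genes in the class. Genes with reads are few in both sets where at most 50% of the windows are a gene's own. The 1 such member, Mir467d, had 385 and 401 reads.

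The named families differed in this respect. All 10 Mir467a copies lacked a window of their own, and none had a read, whereas Mir467c, Mir467d and Mir467e had 63.2%, 39.1% and 59.1% of their windows to themselves. Of 12 Mir669a copies 11 lacked an own window, and again none had a read. The detected members Mir669o and Mir669c had 58.7% and 83.0%. An own stretch did not go with reads in every member, since 20 of the 28 members with more than 50% own windows were silent. Among the first silent members of each family by position, Gm22072 had 56.0% own windows, Mir669f 53.0%, Mir466m 42.9%, Mir297a-2 36.2% and Mir467a-1 0%.

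Among annotated hairpins, the only sequence searched, sharing was mostly within the array. A window of 116 members recurred at another place inside it, and windows of only 28 members recurred in a hairpin outside it. Mir467d and Mir467e each shared a window with 14 other members, Mir467c with 16, Mir669c with 37 and Mir669o with 38. The tables hold no read positions, so where in each hairpin the counted reads lie was not measured. Mir669e, by contrast, shared no window with another member and had 2 and 1 reads.

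The relatives elsewhere in the genome also had few reads. Of 10 genes named Mir297, Mir466, Mir467 or Mir669 outside the array, only Mir466q, at chr3:28419943-28420018, had reads, with 1 and 3. Mir297-1 and Mir466f-4 had 0 in both libraries, level with the other 7. Markers of pluripotent cells, another setting in which the array is known, were likewise at or near 0. Of 9 such genes found in the tables, 3 had reads, none was detected, and the highest, Mir302a, had 1 read in each library.

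The 2 libraries were compared gene by gene, as a measure of how far replicates of this tissue differed. An exact binomial test with TMM scaling, adjusted by Benjamini-Hochberg over the 273 detected genes, called 2 of the 5 detected members, both lower in replicate 2. Of all detected genes it called 172, or 63.0%, with 81, or 29.7%, lower in replicate 2. Nothing particular to the array is read from 2 of 5 beside these shares. The test counts reads as independent and so measures counting error, not the spread between animals.

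Mir467e was 1.48-fold lower in replicate 2 (1.28 to 1.72; log2 ratio -0.57; adjusted exact binomial p = 2.64e-07). Mir467d was 1.20-fold lower (1.04 to 1.38; log2 ratio -0.26; adjusted exact binomial p = 0.0232). Mir669c, Mir669o and Mir467c had log2 ratios of -0.65, -0.50 and -0.19 and adjusted exact binomial p of 0.182, 0.149 and 0.643. The log2 ratio was below 0 for all 5 members and for 133 of the 273 detected genes (48.7%). The members' median was -0.50 against 0.02 over all detected genes, whose central 95% ran from -1.49 to 1.49, so the ratio of each member lay inside that range. The edgeR exact test, at a common dispersion estimated from both libraries (biological coefficient of variation 0.335), called 4 of 273 genes, or 1.47%, and 0 members, whose adjusted p was 1. That dispersion was estimated with both libraries as 1 group. It includes the difference under test, so few calls could follow, and likeness of the libraries is not read from them.

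Summed over all members and scaled in the same way, the reads of the array were 1.34-fold lower in replicate 2 (1.22 to 1.47; log2 ratio -0.42, -0.55 to -0.28). The summed shares of the smooth muscle and red cell markers were also lower in replicate 2, as given above. Those of the skeletal muscle markers, of endothelium (8.86% and 11.29%) and of leukocytes (0.142% and 0.209%) were higher. The single genes did not all follow these sums. Of 4 leukocyte markers the exact binomial test called 2 higher and 2 lower in replicate 2. Of 3 endothelial markers it called 1 higher, Mir126a, and 0 lower. The skeletal muscle sum was mostly Mir206, a muscle microRNA with 32871 and 139295 reads. Of the 7 detected skeletal muscle markers, 4 were called higher in replicate 2 by the exact binomial test and 0 lower. Mir486 had 972 and 1170 CPM, Mir1a-2 had 368 and 402 CPM and Mir499 had 54.0 and 735 CPM. Mir1a-1 had 20.1 and 11.5 CPM and Mir133a-1 had 29.5 and 20.7 CPM, and neither was called. Reads that match several places are not in these values. The part of these markers in the lower level of the array was not tested.

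**Figure D4:**
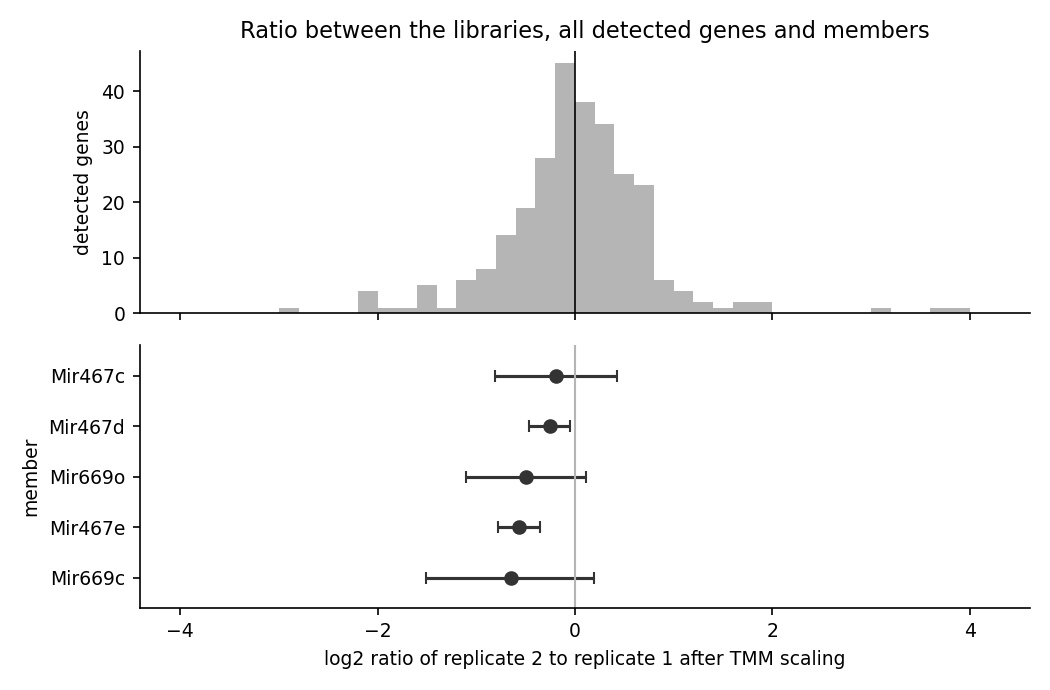
Log2 ratio of replicate 2 to replicate 1 after TMM scaling, as a histogram of the 273 genes detected in both libraries (top; number of genes) and for the 5 detected members with exact binomial 95% intervals for counting error (bottom). All 5 members lie below 0, from -0.65 to -0.19, and the intervals of Mir467d and Mir467e do not reach 0.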

How the data were processed

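The 2 small RNA libraries of gastrocnemius, which form 1 group, were analysed. The deposited tables hold counts of reads per microRNA gene, raw and not normalized, and the build mm10 and annotation GENCODE M21 are named in the accompanying read-me files. No aligner or counting tool is given in the sources used here. The tables have no header, so the strand columns were read from their layout and values, and counts on the gene's strand were used. The members and lists were chosen with earlier results of these data known. The text names every member with at least 10 reads in either library, the most abundant other member and first silent member of each family, 3 relatives elsewhere by mean CPM (of which only Mir466q had reads, the other places being ties at 0) and the 2 most abundant Dlk1 to Dio3 genes. Other named genes were chosen after their values were seen.

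CPM was computed over gene-assigned reads. TMM factors were 1.02 and 0.977, taken over the genes detected in both libraries. A two-sided exact binomial test with Benjamini-Hochberg adjustment at 0.05 compared the libraries. It was tried on simulated libraries with Poisson counts around 1 shared profile. Without a change it called 0% of 281 genes. Where genes were changed, it called 75.6% of those at 1.5-fold and 98% of those at 3-fold. The simulation held counting error only, so it does not show how the test behaves on libraries that differ by more. The read counts of the 2 libraries differed beyond sampling noise (chi-square of 572 per degree of freedom), so both were kept as separate samples. Alternatives were other read minimums, scalings, membership, denominators, strand columns and window lengths, and edgeR with a common dispersion. The RefSeq table matched 0 of 119 members and 8 of 10 relatives by symbol. Tools were R 4.3.3, edgeR 4.0.16, DESeq2 1.42.0, Python 3.11.15, pandas 2.3.3 and scipy 1.17.1.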

Additional observations from a re-analysis of the deposited data

Results flagged for a closer look

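Most reads of both libraries lie outside the gene counts used for the array. In replicate 1, 7195252 reads matched several places, and in replicate 2 10919725 did; reads placed at 1 position outside the annotated microRNA genes came to 142257 and 232773. These rows were singled out because they hold signal that the comparisons of the report do not use and that is far above the limit of 3 counts. For each read counted at a member of the array there were 7753.5 and 12638.6 reads that matched several places. The tables do not say where those reads match, so their relation to the array was not tested.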

How the results depend on the processing

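Of the alternatives to the 5 summary results, 31 kept them within the set limits and 4 moved them. The restriction to members with an own window could not move them, since the 54 members it leaves out had 0 reads. Within those limits, members with reads fell to 7 at a minimum of 3 reads in 1 library, and detected members rose to 6 at a minimum of 5 reads. The array's share of reads was 0.072% with counts made without regard to strand and 0.00793% with all reads as the denominator, against 0.0499%. Without regard to strand the members had the same reads, and only the total of gene-assigned reads was smaller. Detected members fell from 5 to 2 at a minimum of 50 reads. Members called different between the libraries went from 2 to 0 with the edgeR exact test at the common dispersion. As that dispersion includes the difference between the libraries, this fall does not show that the members were alike. Over the alternatives, the adjusted p of Mir467e ran from 6.22e-09 to 1 and that of Mir467d from 0.00343 to 1. Leaving out each replicate gave 8 members with reads, 5 detected and a share of 0.0416% to 0.0582%. Overlap on either strand gave the same counts as the strand rule.

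The summed log2 ratio ran from -0.498 to -0.419 over the other scalings. Windows of 18, 20 and 25 bases left 54, 54 and 53 members without a window of their own, and 0 of them had reads. The window lengths, the restriction to members with an own window and TMM over all genes were chosen after seeing the data. The planned restriction by RefSeq mature sequence was not run, since 0 members matched that table. No paired analysis was possible because there is only 1 group. Limits are the 1 group of 2 libraries, the shared donor identifier, and the reads matching several places, which are assigned to no gene. Silent members are not shown to be absent.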

Other observations

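Of the 631 annotated hairpins with at most 50% of their 22-base windows at 1 place, 9 had reads. Mir467d had 385 and 401, and the next, Gm23935, which lies outside the array and was chosen after its values were seen, had 52 and 35 and no window of its own.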
